A study of Homo sapiens with 8 samples.

Results

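The 9 genes described here encode potassium channels of T cells (KCNH2, KCNA3, KCNN4 and KCNK5) and the core of store-operated calcium entry (STIM1, STIM2, ORAI1, ORAI2 and ORAI3). They were chosen by gene symbol, as 9 of the 64252 genes counted, with earlier results of these data known. All 9 passed the filter on low counts in each comparison. RNA was sequenced from 2 human T-cell acute lymphoblastic leukaemia (T-ALL) lines, 6T-CEM and J.gamma1, that carried a lentiviral control shRNA (sh-NC, shControl in the labels) or an shRNA against LDB1 (sh-LDB1). LDB1 is an adaptor protein that joins enhancers to promoters in complexes with transcription factors. There were 2 libraries in each of the 4 groups, the cells had been selected with puromycin, and the labels do not say whether replicates came from separate infections, so the p-values measure the spread between these libraries, which may be technical. 6T-CEM is a thioguanine-resistant derivative of the T-ALL line CCRF-CEM, and J.gamma1 is a derivative of the T-ALL line Jurkat that is known as deficient in phospholipase C-gamma1 protein. The text of the study does not name which of its LDB1 hairpins the sequenced cells carried.

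In T cells, calcium entry after antigen receptor signalling depends on the emptying of the endoplasmic reticulum (ER). STIM proteins in the ER membrane sense the loss of calcium there and open ORAI channels in the plasma membrane, and calcium flows in. Potassium leaving through potassium channels keeps the membrane potential negative and so maintains the driving force for calcium. Kv1.3 (KCNA3) and KCa3.1 (KCNN4) are the classical potassium channels of T cells, TASK-2 (KCNK5) is an acid-sensitive background channel, and hERG (KCNH2) is the cardiac rapid delayed rectifier channel that is also found in leukaemia cells.

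The libraries held between 26160492 and 30604977 counts. LDB1 itself was lower in both sh-LDB1 groups, with 107 and 111 CPM (counts relative to library size, scaled by edgeR's TMM factors) in 6T-CEM sh-NC against 36.7 and 34.8 CPM in sh-LDB1, and 60.7 and 59.1 CPM against 33.1 and 30.7 CPM in J.gamma1. The knockdown changed LDB1 by -1.60 (log2 fold change) in 6T-CEM and by -0.89 in J.gamma1, and the difference of 0.70 ± 0.095 (SE) between the lines passed the test (edgeR, adjusted p = 0.000237). PLCG1, the gene of phospholipase C-gamma1, was measured at 277 and 275 CPM in J.gamma1 sh-NC, above the 216 and 219 CPM of 6T-CEM sh-NC, so its RNA was present in a line known for lack of the protein. Of 11 T-lineage markers, 10 in 6T-CEM and 11 in J.gamma1 exceeded 1 CPM in both libraries of each group. Their summed level moved with the knockdown, from 2034 and 2128 CPM to 2591 to 2633 CPM in 6T-CEM and from 2669 and 2687 CPM to 3539 and 3565 CPM in J.gamma1. Single markers went both ways. In 6T-CEM 6 were called higher and 1 lower, beside 15.1% and 16.2% of all genes. In J.gamma1 7 were called higher and 2 lower, beside 25.0% and 26.5%. The mean of CD5 went from 84.6 to 57.8 CPM in 6T-CEM, and that of LCK from 765 to 580 CPM in J.gamma1. In 6T-CEM the mean of LCK went from 296 to 325 CPM. The mean of CD3E went from 409 to 630 CPM in 6T-CEM and from 466 to 885 CPM in J.gamma1. The 7 B-lineage markers summed to 34.0 and 34.6 CPM in 6T-CEM sh-NC, 42.8 and 46.2 CPM in 6T-CEM sh-LDB1, 73.6 and 74.9 CPM in J.gamma1 sh-NC and 84.2 and 84.5 CPM in J.gamma1 sh-LDB1. Most of that was CD79A. CD79B held 95 to 221 counts in every library, PAX5 held 45 to 88 in the 6T-CEM libraries and 0 in J.gamma1, and EBF1 held 0 in 6T-CEM and went from 103 and 86 to 152 and 153 in J.gamma1. MS4A1 had at most 3 counts and CD22 at most 2 in any library. The 7 myeloid markers summed to at most 2.90 CPM in any library, and the 6 erythroid markers summed to at most 1.5 CPM. The part of these marker shifts in the results below was not tested.

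LDB1-knockdown was accompanied by a fall of KCNH2 and KCNA3 in both lines, while KCNK5 rose in 6T-CEM. Changes of the STIM and ORAI genes stayed under 2-fold, and the largest of those that passed the test was a 1.58-fold fall of ORAI1 in J.gamma1. In 6T-CEM, 3 of the 9 genes were higher (KCNK5, STIM1 and STIM2) and 3 were lower (KCNH2, KCNA3 and ORAI2) at an adjusted p under 0.05, against 15.1% of all 16059 genes tested that were higher and 16.2% that were lower. In J.gamma1, STIM2 was higher and 4 genes were lower (KCNH2, KCNA3, ORAI1 and ORAI2), against 25.0% and 26.5% of 17215 genes tested. Over the 9 genes the log2 fold change had a median of 0.12 (6T-CEM) and -0.08 (J.gamma1), and over all genes tested it was 0.0027 and -0.00025. Since the 9 genes were chosen with earlier results of these data known, no share here tests them as a set against all genes. Changes beyond 2-fold with an adjusted p under 0.05 were found for 3 of the 9 genes in 6T-CEM, where 5.13% of all genes had one, and for 2 in J.gamma1, where 13.9% had one. KCNA3 in 6T-CEM lay on that limit, at -1.01, and came inside it with library sizes set by the upper quartile (-0.98) or by total counts (-0.97), with DESeq2 (-0.99), and without replicate 2 of 6T-CEM sh-NC (-0.90) or of 6T-CEM sh-LDB1 (-0.92), while it still passed an adjusted p of 0.05.

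**Figure D1:**
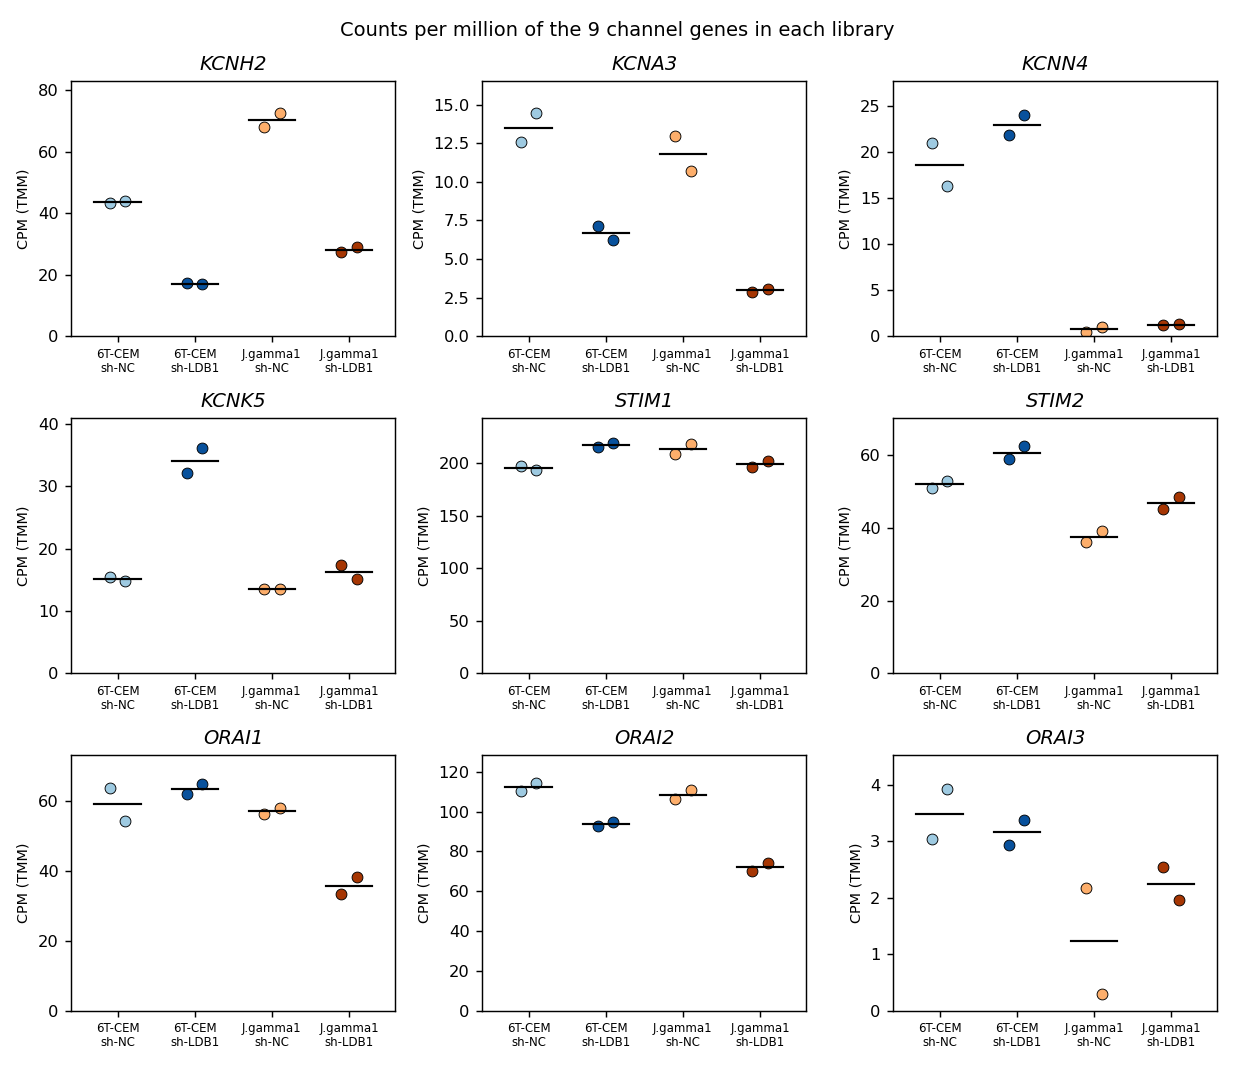
CPM of each of the 9 genes (y axes, linear from 0, TMM-scaled) in the 4 groups (x axes); each point is 1 library and each bar the mean of 2. The sh-LDB1 points of KCNH2 and KCNA3 lie below the sh-NC points in both lines, KCNK5 is highest in 6T-CEM sh-LDB1, and KCNN4 is near 0 in J.gamma1.

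**Figure D2:**
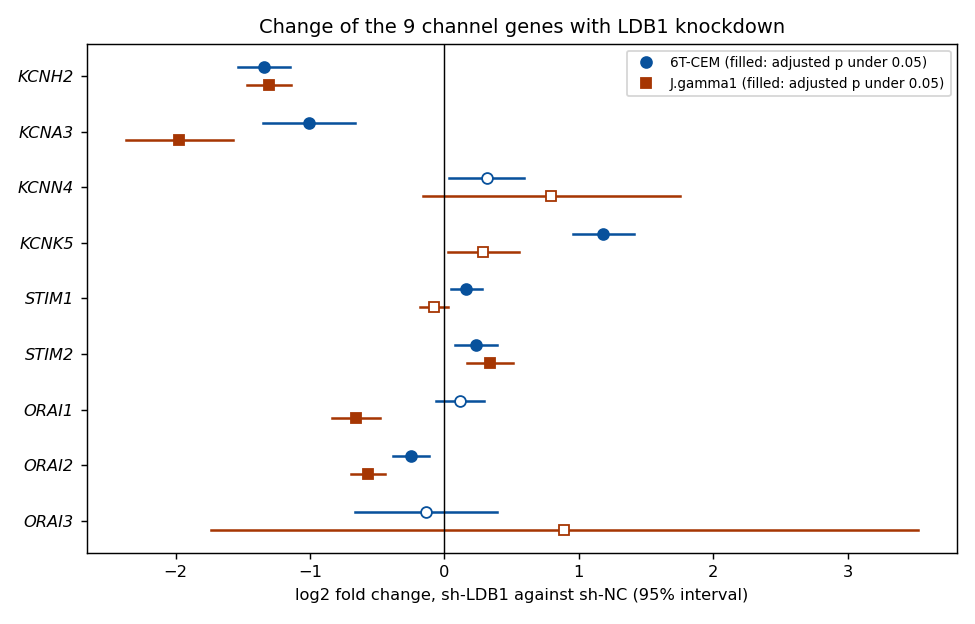
Log2 fold change of sh-LDB1 against sh-NC (x axis) with its 95% interval for each of the 9 genes (y axis) in 6T-CEM (circles) and J.gamma1 (squares); filled symbols passed an adjusted p of 0.05. KCNH2 changed by -1.34 and -1.30 in the 2 lines, and the interval of ORAI3 in J.gamma1 runs from -1.74 to 3.52.

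KCNH2 (ENSG00000055118) lies on the minus strand of chromosome 7, at 150944961 to 150978321 of GRCh38. Its libraries read 43.3 and 44.1 CPM in 6T-CEM sh-NC and 17.3 and 16.8 CPM in 6T-CEM sh-LDB1. In J.gamma1 the levels were 68.1 and 72.6 CPM with sh-NC and 27.3 and 29.0 CPM with sh-LDB1. In both lines both knockdown libraries lay below both control libraries, with the replicates close to each other. The log2 fold change was -1.34 ± 0.092 (SE) in 6T-CEM (adjusted p = 7.09e-08) and -1.30 ± 0.074 in J.gamma1 (adjusted p = 1.98e-07), which is a 2.54-fold and a 2.47-fold lower level. The change did not differ detectably between lines, with a difference of 0.037 and a 95% interval of -0.19 to 0.27 (adjusted p = 0.880). On the log2 scale the fall of LDB1 itself was larger in 6T-CEM, and its part in the KCNH2 changes was not tested. Between the control groups KCNH2 was 1.60-fold higher in J.gamma1 than in 6T-CEM (adjusted p = 4.09e-06). Since the RNA came from whole cultures, a lower level in every cell and a loss from some of the cells cannot be told apart.

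The genes near KCNH2 changed in both directions. Of 10 other genes whose span lay within 100 kb, 8 were tested in each line. NOS3, the endothelial nitric oxide synthase gene that starts 12696 bases from KCNH2, had a change of -0.13 on the log2 scale in 6T-CEM (adjusted p = 0.442) and rose by 0.71 in J.gamma1 (adjusted p = 0.00125). FASTK, the Fas-activated serine/threonine kinase gene, rose by 0.46 and 0.99, and ABCB8, a mitochondrial transporter gene, rose by 0.28 and 0.48. CDK5, a cyclin-dependent kinase gene, fell by 0.38 and 0.45. SLC4A2, an anion exchanger gene, rose by 0.23 in 6T-CEM and had a change of 0.13 in J.gamma1 that did not pass (adjusted p = 0.0634). ASIC3, a proton-gated cation channel gene, had a change of -0.06 in 6T-CEM (adjusted p = 0.918) and rose by 0.62 in J.gamma1, and ATG9B had changes of -0.43 and -0.37 that did not pass the test. The lncRNA gene ENSG00000244151 did not pass in either line, at 0.27 and 0.95, and AOC1 and the lncRNA gene ENSG00000243433 were below the filter.

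KCNA3, the gene of Kv1.3, showed the largest fall of the 9 in J.gamma1. It read 12.6 and 14.4 CPM in 6T-CEM sh-NC and 7.12 and 6.22 CPM in 6T-CEM sh-LDB1. In J.gamma1 it read 12.9 and 10.7 CPM with sh-NC and 2.85 and 3.08 CPM with sh-LDB1. The control levels of the 2 lines overlapped, and the knockdown levels did not overlap with them or with each other. The fall was 2.01-fold in 6T-CEM (-1.01 ± 0.16 on the log2 scale, adjusted p = 0.000241) and 3.92-fold in J.gamma1 (-1.97 ± 0.18, adjusted p = 6.38e-06). LDB1 itself fell less in J.gamma1 on the log2 scale, to 33.1 and 30.7 CPM, against 36.7 and 34.8 CPM in 6T-CEM. Its part in the KCNA3 changes was not tested. The fall of KCNA3 was larger in J.gamma1 by 0.97 ± 0.24 on the log2 scale (interaction test of edgeR, adjusted p = 0.0118). That difference missed the threshold without replicate 1 of 6T-CEM sh-NC (-0.86, adjusted p = 0.0517) and without replicate 1 of J.gamma1 sh-NC (-0.83, adjusted p = 0.0576).

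KCNK5, the gene of TASK-2, moved the other way. Its levels were 15.5 and 14.8 CPM in 6T-CEM sh-NC and 32.1 and 36.0 CPM in 6T-CEM sh-LDB1, a 2.27-fold rise (log2 fold change 1.18 ± 0.11, adjusted p = 1.02e-06). In J.gamma1 it read 13.5 and 13.5 CPM with sh-NC and 17.3 and 15.2 CPM with sh-LDB1, where the knockdown libraries were also the higher ones but the change of 0.29 ± 0.12 did not pass (adjusted p = 0.0644). The change was smaller in J.gamma1 by 0.90 ± 0.16 on the log2 scale (adjusted p = 0.00133). The J.gamma1 change passed without replicate 2 of J.gamma1 sh-LDB1, at 0.39 (adjusted p = 0.0456). It also passed with library sizes set by the upper quartile, at 0.34 (adjusted p = 0.0347), or by total counts, at 0.32 (adjusted p = 0.0479).

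KCNN4, the gene of the calcium-activated channel KCa3.1, differed most between the lines. The 6T-CEM libraries held 545 and 441 counts in the controls and 643 and 692 after knockdown, or 21.0, 16.3, 21.9 and 24.1 CPM. The J.gamma1 libraries held only 16 and 31 counts in the controls and 34 and 40 after knockdown, or 0.508, 0.989, 1.21 and 1.35 CPM. Between control groups the gene was 25.0-fold lower in J.gamma1 (log2 difference -4.64, 95% interval -5.19 to -4.10, adjusted p = 9.54e-09), a difference in which the line and anything else that set these libraries apart cannot be told apart. In both lines the sh-LDB1 libraries were the higher ones, but neither change passed the test, at 0.31 in 6T-CEM (95% interval 0.036 to 0.59, adjusted p = 0.0812) and 0.80 in J.gamma1 (interval -0.16 to 1.75, adjusted p = 0.149). Without replicate 1 of 6T-CEM sh-NC the change in that line was 0.50 and passed (adjusted p = 0.0364), and in 1 fit to all 8 libraries the J.gamma1 change was 0.79 (adjusted p = 0.0499). Per kilobase of exon, the ratio of KCNA3 to KCNN4 was 0.185 and 0.273 in 6T-CEM sh-NC and 0.10 and 0.0797 in 6T-CEM sh-LDB1. In J.gamma1 the ratio was 7.84 and 3.33 in the controls and 0.725 and 0.701 after knockdown, so the order of these 2 genes turned in that line.

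The promoters of KCNA3 and KCNK5 are shown because both genes changed beyond 2-fold, KCNA3 downward in both lines and KCNK5 upward in 6T-CEM. Each is the RefSeq promoter of GRCh38.p14 nearest to the annotated 5′ end of the gene, from 250 bases before the start to 50 after it, written 5′ to 3′ on the minus strand on which both genes lie. KCNA3 is at chr1:110674891-110675190 and KCNK5 at chr6:39229426-39229725. The motifs searched on both strands were CAGNTG, an E-box of the kind bound by TAL1 and E proteins, AGATAA, which is bound by GATA factors, TGTGGT, which is bound by RUNX factors, CCGGAAG, which is bound by ETS factors, and TAACNG, which is bound by MYB. Capitals would mark a match to these letters, and neither window held one, so no motifs overlapped.
KCNA3: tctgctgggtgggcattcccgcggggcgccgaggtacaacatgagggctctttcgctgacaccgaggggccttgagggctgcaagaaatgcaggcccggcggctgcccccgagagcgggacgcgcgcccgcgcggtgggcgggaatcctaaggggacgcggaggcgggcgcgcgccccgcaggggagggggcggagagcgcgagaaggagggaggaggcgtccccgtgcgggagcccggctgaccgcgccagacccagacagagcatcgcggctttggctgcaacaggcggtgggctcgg
KCNK5: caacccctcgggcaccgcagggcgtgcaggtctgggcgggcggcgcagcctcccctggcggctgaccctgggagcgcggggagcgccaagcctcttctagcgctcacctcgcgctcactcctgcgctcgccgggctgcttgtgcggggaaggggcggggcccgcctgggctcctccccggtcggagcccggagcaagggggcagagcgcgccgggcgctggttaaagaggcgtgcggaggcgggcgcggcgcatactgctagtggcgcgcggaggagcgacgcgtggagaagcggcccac

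Of 7 members whose promoters were searched, 3 held an E-box (STIM1, ORAI2 and ORAI3), against 49.9% of all 35116 promoters. None of the 7 held the GATA, RUNX, ETS or MYB letters, which were in 10.3%, 13.1%, 10.3% and 20.8% of all promoters. The KCNA3 and KCNK5 windows were 73.7% and 76.0% G and C, and that of KCNN4 was 60.7%, against a median of 58.7% over all promoters.

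STIM1 and STIM2 encode the ER calcium sensors. STIM1 was the higher of the pair per kilobase of exon in every library. It read 198 and 194 CPM in 6T-CEM sh-NC, 215 and 219 CPM in 6T-CEM sh-LDB1, 209 and 218 CPM in J.gamma1 sh-NC and 196 and 202 CPM in J.gamma1 sh-LDB1. The knockdown libraries lay above the controls in 6T-CEM and below them in J.gamma1. The change was 0.16 ± 0.054 in 6T-CEM (1.12-fold higher, adjusted p = 0.0333) and -0.08 ± 0.047 in J.gamma1 (adjusted p = 0.186), and the lines differed by -0.24 ± 0.065 (adjusted p = 0.0167). The 6T-CEM call was lost when any 1 of the 4 libraries was left out, with changes of 0.14 to 0.18 and adjusted p of up to 0.137, and also without the filter on low counts (0.15, adjusted p = 0.0743). The difference between lines was lost on leaving out replicate 2 of either 6T-CEM group, replicate 2 of J.gamma1 sh-NC or replicate 1 of J.gamma1 sh-LDB1, with an adjusted p of up to 0.0718. Exons of STIM1 share 250 bases with the lncRNA gene ENSG00000229368 on the same strand, which held 35 to 82 counts per library, and 192 bases with STIM1-AS1 on the opposite strand, which held 0 to 19.

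STIM2 read 51.1 and 52.8 CPM in 6T-CEM sh-NC and 58.9 and 62.5 CPM in 6T-CEM sh-LDB1. In J.gamma1 it read 36.1 and 39.1 CPM with sh-NC and 45.2 and 48.4 CPM with sh-LDB1, so that the knockdown libraries were the higher ones in both lines. The rise was 1.18-fold in 6T-CEM (0.24 ± 0.074, adjusted p = 0.0251) and 1.26-fold in J.gamma1 (0.34 ± 0.078, adjusted p = 0.00395), with a difference of 0.099 and a 95% interval of -0.13 to 0.32 (adjusted p = 0.557). The 6T-CEM call was lost with DESeq2 (0.25, adjusted p = 0.0559), without the filter on low counts (0.23, adjusted p = 0.0613), and without replicate 1 or 2 of 6T-CEM sh-NC (0.21 and 0.27) or replicate 2 of sh-LDB1 (0.19). The ratio of STIM1 to STIM2 per kilobase of exon was 2.66 and 2.52 in 6T-CEM sh-NC and 2.51 and 2.42 with sh-LDB1. In J.gamma1 it went from 3.98 and 3.84 to 2.99 and 2.87.

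ORAI1 encodes the main pore subunit of the calcium release-activated channel. In 6T-CEM its libraries read 63.8 and 54.4 CPM with sh-NC and 62.2 and 64.9 CPM with sh-LDB1, groups that overlapped, and the change of 0.12 had a 95% interval of -0.060 to 0.29 (adjusted p = 0.318). In J.gamma1 the libraries read 56.3 and 58.1 CPM with sh-NC and 33.3 and 38.2 CPM with sh-LDB1, a 1.58-fold fall (-0.66 ± 0.081, adjusted p = 5.86e-05). The lines differed by -0.78 ± 0.12 (adjusted p = 0.000791), and this call held with each of the 8 libraries left out.

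ORAI2, which can form channels together with ORAI1, fell in both lines. It read 110 and 114 CPM in 6T-CEM sh-NC, 92.8 and 94.7 CPM in 6T-CEM sh-LDB1, 106 and 111 CPM in J.gamma1 sh-NC and 70.1 and 74.3 CPM in J.gamma1 sh-LDB1, with no overlap of groups within a line. The fall was 1.19-fold in 6T-CEM (-0.25 ± 0.062, adjusted p = 0.00654) and 1.48-fold in J.gamma1 (-0.57 ± 0.056, adjusted p = 1.23e-05), and was larger in J.gamma1 by 0.32 ± 0.079 (adjusted p = 0.0110). The 6T-CEM call was lost without replicate 2 of its sh-NC group (-0.22, adjusted p = 0.0678), and the difference without replicate 1 of that group (-0.28, adjusted p = 0.0524). ORAI2 shares 588 exon bases with ALKBH4 on the opposite strand, a gene with 485 to 859 counts per library, and since the strand setting of the counting is not given in the sources used here, reads of the shared bases cannot be told apart.

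ORAI3 was near the limit of what these libraries measured. It held 79 and 106 counts in 6T-CEM sh-NC, 86 and 97 in 6T-CEM sh-LDB1, 68 and 9 in J.gamma1 sh-NC and 71 and 58 in J.gamma1 sh-LDB1. The J.gamma1 control with 68 counts was nearer to both knockdown libraries than to the other control, and the groups overlapped in both lines. The change was -0.13 in 6T-CEM (95% interval -0.66 to 0.39, adjusted p = 0.732) and 0.89 in J.gamma1 (interval -1.74 to 3.52, adjusted p = 0.492). Without replicate 1 of J.gamma1 sh-NC, which leaves the library with 9 counts as the only control, the J.gamma1 value was 2.97 (adjusted p = 9.33e-05), the difference between lines was 3.10 (adjusted p = 0.00258) and the difference between control groups was -3.59 (adjusted p = 4.72e-05). ORAI3 shares 1397 exon bases with the lncRNA gene ENSG00000261487 on the same strand, which held 7 counts in the J.gamma1 control with 9 for ORAI3, 6 in 1 6T-CEM control and 0 in the other 6 libraries.

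Over the 3 ORAI genes, the summed level per kilobase of exon was 33.5 and 30.9 in 6T-CEM sh-NC and 31.3 and 32.6 with sh-LDB1. In J.gamma1 it was 30.2 and 30.5 in the controls and 19.0 and 20.9 after knockdown. ORAI1 made up between 61.7% and 70.0% of that sum in every library. The summed STIM level was 0.674 and 0.726 of the summed ORAI level in 6T-CEM sh-NC and 0.797 and 0.789 of it in 6T-CEM sh-LDB1. In J.gamma1 it was 0.719 and 0.748 in the controls and 1.15 and 1.08 after knockdown, above 1 only in the J.gamma1 knockdown libraries on this scale. These sums and ratios depend on the exon length used and are descriptions without a test.

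Per kilobase of exon, the levels in 6T-CEM sh-NC, as the mean of 2 libraries, ran from ORAI1 (20.8 CPM per kilobase) over STIM1 (16.3), ORAI2 (10.1), STIM2 (6.27), KCNH2 (6.06), KCNN4 (5.97), KCNK5 (4.0) and KCNA3 (1.33) to ORAI3 (1.32). KCNH2 and KCNN4, and KCNA3 and ORAI3, overlapped between libraries there. In J.gamma1 sh-NC, ORAI1 (20.1), STIM1 (17.7), ORAI2 (9.76) and KCNH2 (9.76) were followed by STIM2 (4.54), KCNK5 (3.56), KCNA3 (1.17), ORAI3 (0.463) and KCNN4 (0.240), and ORAI2 overlapped with KCNH2, and ORAI3 with KCNN4. With sh-LDB1, KCNK5 rose to the third place in 6T-CEM (9.0), where it overlapped with ORAI2, and STIM1 (16.5) passed ORAI1 (12.6) in J.gamma1. KCNA3 was the lowest of the 9 in both knockdown groups, at 0.659 and 0.293. The order rests on the length used, since with the longest transcript in place of all exons STIM1 read 41.2 in 6T-CEM sh-NC and 44.9 in J.gamma1 sh-NC, above ORAI1 at 22.7 and 22.0.

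**Figure D3:**
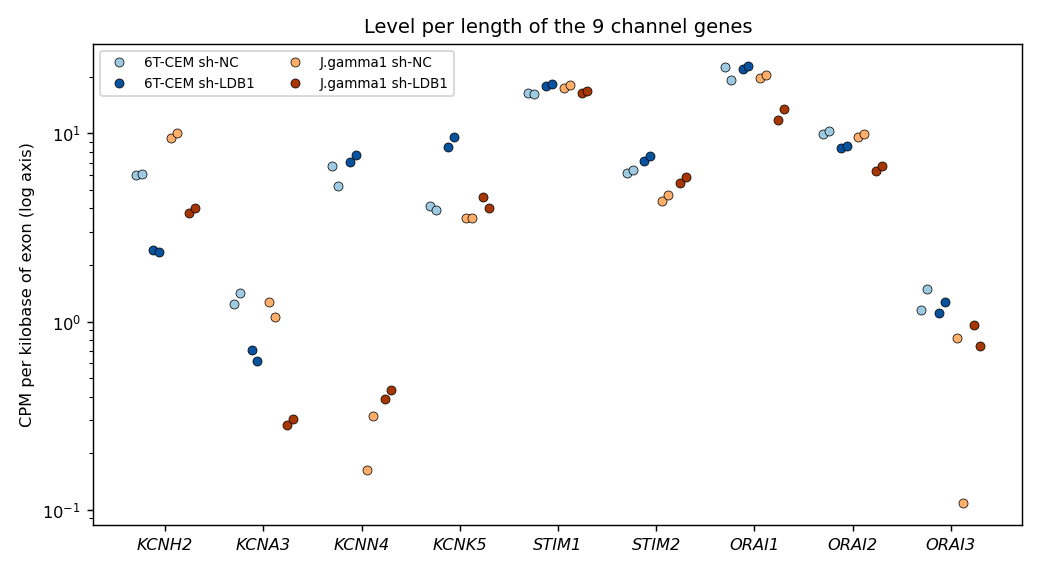
Level per length (y axis, CPM per kilobase of exon, log axis) of the 9 genes (x axis) in the 4 groups; each point is 1 library. ORAI1 and STIM1 are the highest in every group, KCNN4 falls from 5.97 in 6T-CEM sh-NC to 0.240 in J.gamma1 sh-NC, and the J.gamma1 sh-NC points of ORAI3 lie far apart.

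Between the lines, the change with LDB1-knockdown differed for 5 of the 9 genes (KCNA3, KCNK5, STIM1, ORAI1 and ORAI2), where 24.4% of all 18552 genes tested differed. In all 5 the J.gamma1 value was the lower one, and the differences ran from -0.97 to -0.24. The difference between the control groups passed for 4 of the 9 genes, of which KCNH2 and STIM1 were higher and KCNN4 and STIM2 lower in J.gamma1, where 65.7% of all genes differed. STIM1 was 1.08-fold higher in J.gamma1 controls (adjusted p = 0.0482), a call that was lost in 7 of 8 fits with 1 library left out and without robust estimation (adjusted p = 0.0509), and STIM2 was 1.39-fold lower (adjusted p = 9.83e-05). KCNA3, KCNK5, ORAI1 and ORAI2 had log2 differences between -0.21 and -0.06, none of which passed. ORAI3 was 2.86-fold lower in J.gamma1 controls (log2 difference -1.52, 95% interval -3.09 to 0.049), which did not pass (adjusted p = 0.0809) but did with DESeq2 (-1.48, adjusted p = 0.0290) and without robust estimation (adjusted p = 0.0484). This value includes the control library with 9 counts, and without it the difference was -0.70 (adjusted p = 0.106). Both comparisons use the same control libraries as the comparisons within a line.

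The genes whose course over the 8 libraries was most like that of KCNH2, by the root mean square distance of centred log2 CPM among 11967 genes, were PHKA1 (distance 0.090, r = 0.99), BRD3OS (0.10, r = 0.99) and FAM222A (0.12, r = 0.99). PHKA1, a regulatory subunit of phosphorylase kinase, fell by 1.13 on the log2 scale in 6T-CEM and by 1.35 in J.gamma1. For KCNA3 the nearest genes were ZNF100 (0.15, r = 0.99), MYT1L (0.16, r = 0.98) and ZNF768 (0.21, r = 0.97), zinc finger protein genes with falls of 0.68 to 0.85 in 6T-CEM and 1.83 to 2.11 in J.gamma1. For KCNK5 they were UBE2C (0.12, r = 0.98), PLEKHA5 (0.16, r = 0.98) and KIF20A (0.17, r = 0.95), of which UBE2C and KIF20A act in mitosis. The 8 points of each correlation share the same libraries and 4 groups. The genes were picked for nearness over these same libraries, so a high r follows from the choice and is no separate result.

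The potassium channel genes were grouped by family, with KCNH2, KCNA3, KCNN4 and KCNK5 counted again in their lists. The counts of each list stand against the 15.1% of all genes that were higher and 16.2% that were lower in 6T-CEM and the 25.0% and 26.5% in J.gamma1. Of 40 genes of voltage-gated channels, 13 were tested in each line. In 6T-CEM edgeR called 0 higher and 3 lower, KCNH2, KCNA3 and KCNH3, a brain-expressed relative of KCNH2 that fell by 0.94 ± 0.26 (adjusted p = 0.0127, not called by DESeq2). DESeq2 also called 0 higher, and 0 were higher at an unadjusted p under 0.05, while 10 genes did not pass and 27 were below the filter. In J.gamma1, 2 were higher and 6 were lower, with KCNH2 and KCNA3 again among the lower. KCNS3, a silent subunit that modifies other channels, fell by 1.46 ± 0.21 from 180 and 182 counts to 59 and 60 (adjusted p = 0.000204) and had 0 counts in all 6T-CEM libraries. Over the tested voltage-gated genes, KCNH2 and KCNA3 included, the median log2 fold change was -0.12 (6T-CEM) and -0.35 (J.gamma1).

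Among 8 calcium- and sodium-activated channel genes, KCNN4 was the only one tested in 6T-CEM. Of 5 tested in J.gamma1, KCNMA1, the BK channel gene, rose by 2.19 ± 0.39 from 11 and 16 counts to 54 and 58 (adjusted p = 0.000837), and KCNN2, an SK channel gene, fell by 1.23 ± 0.18 from 237 and 268 counts to 92 and 102 (adjusted p = 0.000236). Of 15 inward rectifier genes, 6 were tested in J.gamma1, where KCNJ14 rose by 1.61 ± 0.29 (adjusted p = 0.000752) and KCNJ4 and KCNJ10 fell by 1.73 ± 0.32 and 0.84 ± 0.19. In 6T-CEM, 1 of 3 tested was higher. It was KCNJ2, named after its values were seen, with 0 counts in both sh-NC libraries and 28 and 23 in sh-LDB1. The gene passed the filter only through the sh-LDB1 libraries, so it could only be called higher. Against a floor of 3 counts per library KCNJ2 was 7.74-fold higher, and DESeq2 gave it no adjusted p.

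Two-pore domain channel genes, which carry background potassium currents, held KCNK5 and its pH-sensitive relative KCNK17. KCNK17 read 24.0 and 25.5 CPM in 6T-CEM sh-NC and 54.8 and 54.3 CPM in 6T-CEM sh-LDB1, a rise of 1.15 ± 0.084 (adjusted p = 1.28e-07), beside 1.18 for KCNK5. Its J.gamma1 counts went from 2 and 8 to 51 and 49, a rise of 3.43 ± 0.56 (adjusted p = 0.000438) from a level near 0. KCNK1, the gene of TWIK-1, fell in both lines, by 0.94 ± 0.28 (not called by DESeq2) and 0.77 ± 0.12. Of the 15 genes, 2 of 6 tested were higher and 1 was lower in 6T-CEM. In J.gamma1, 1 of 7 tested was higher and 3 were lower, among them KCNK6 (fell by 0.62 ± 0.18) and KCNK13, named after its values were seen, which went from 12 and 24 counts to 5 and 4. DESeq2 called 2 of the 4 J.gamma1 genes, without KCNK6 and KCNK13. Of 16 auxiliary subunit genes, KCNAB2 fell by 0.25 ± 0.063 in 6T-CEM, and KCNIP3 and KCNMB4 fell by 1.35 ± 0.28 and 1.25 ± 0.15 in J.gamma1, with 6 tested genes in each line that did not pass. No auxiliary subunit gene was called higher in either line by edgeR (0 genes) or DESeq2 (0 genes), and 0 of them were higher at an unadjusted p under 0.05.

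SARAF, an ER protein that slows and switches off store-operated entry by acting on STIM1, fell by more than 2-fold in both lines, which no STIM or ORAI gene did. It read 221 and 218 CPM in 6T-CEM sh-NC and 101 and 90.1 CPM in 6T-CEM sh-LDB1. In J.gamma1 it read 233 and 240 CPM with sh-NC and 87.3 and 90.3 CPM with sh-LDB1. The log2 fold change was -1.19 ± 0.064 in 6T-CEM (adjusted p = 7.15e-09) and -1.39 ± 0.049 in J.gamma1 (adjusted p = 7.56e-09), with no overlap between groups and a difference of -0.20 ± 0.081 between lines that did not pass (adjusted p = 0.0950). Of 8 regulators of STIM and ORAI, 6 were tested, with 1 higher and 2 lower in 6T-CEM and 2 higher and 4 lower in J.gamma1. Over all genes tested, 15.1% were higher and 16.2% lower in 6T-CEM, and 25.0% and 26.5% in J.gamma1. STIMATE, an ER protein that aids STIM1, fell by 0.40 ± 0.099 and 0.25 ± 0.088, the latter not called by DESeq2, and ASPH, whose locus also encodes the ER protein junctate, rose by 0.34 ± 0.066 and 0.66 ± 0.070. CRACR2B, a cytoplasmic regulator of ORAI1, fell by 1.51 ± 0.41 in J.gamma1. The J.gamma1 genes outside the naming rule, chosen after their values were seen, were CRACR2A, which fell by 0.32, and SLC35G1, which rose by 0.63.

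**Figure D4:**
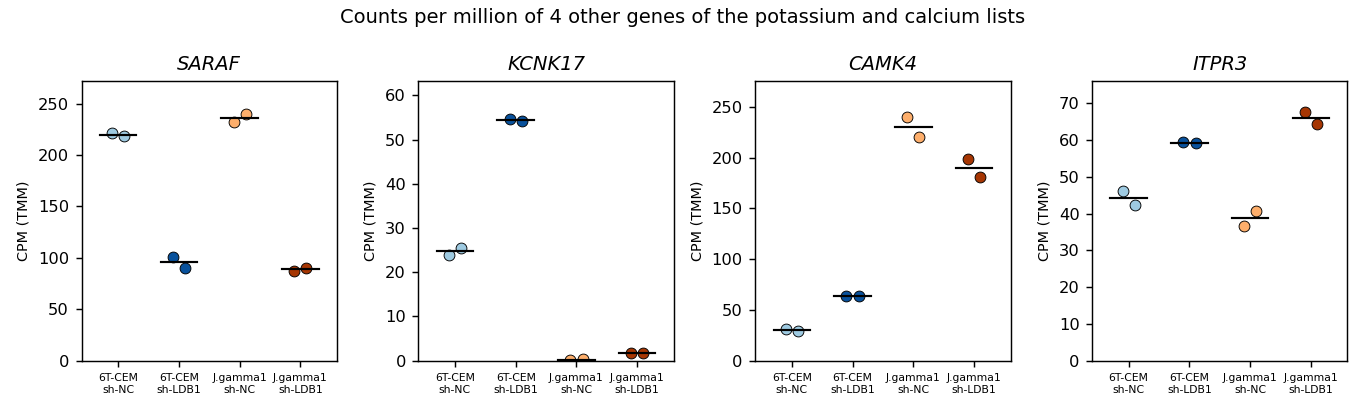
CPM (y axes, linear from 0, TMM-scaled) of SARAF, KCNK17, CAMK4 and ITPR3 in the 4 groups (x axes); points are libraries and bars means of 2. SARAF is below 102 CPM in every sh-LDB1 library and above 218 CPM in every sh-NC library, ITPR3 is higher with sh-LDB1 in both lines, and CAMK4 is higher in 6T-CEM and lower in J.gamma1.

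Of the genes that release calcium from the ER and refill it, ITPR3 rose and ATP2A3 fell in both lines. ITPR3, an inositol trisphosphate receptor gene, went from 46.1 and 42.2 CPM to 59.4 and 59.2 CPM in 6T-CEM (0.44 ± 0.076, adjusted p = 0.000522) and from 36.7 and 40.7 CPM to 67.6 and 64.5 CPM in J.gamma1 (0.79 ± 0.076, adjusted p = 9.28e-06). ATP2A3, the SERCA3 pump gene of blood cells, fell by 0.33 ± 0.051 and 0.55 ± 0.045. The SERCA2 gene ATP2A2 had a change of 0.09 in 6T-CEM (adjusted p = 0.260) and rose by 0.47 ± 0.047 in J.gamma1, and the SERCA1 gene ATP2A1 rose by 0.68 ± 0.091 in 6T-CEM and had a change of -0.04 in J.gamma1 (adjusted p = 0.876). Of 9 genes, 2 of 7 tested were higher and 1 lower in 6T-CEM, and 3 of 6 tested were higher and 2 lower in J.gamma1. The shares of all genes were 15.1% higher and 16.2% lower in 6T-CEM, and 25.0% and 26.5% in J.gamma1. The J.gamma1 genes outside the rule, named after their values were seen, were ITPR1 (rose by 0.41) and ITPR2 (fell by 0.24).

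Among 7 genes of calcium export over the plasma membrane, ATP2B4, a calcium pump gene, fell by 0.23 ± 0.058 in 6T-CEM and by 0.74 ± 0.049 in J.gamma1. ATP2B1, another pump gene, rose by 0.39 ± 0.063 in 6T-CEM and had a change of 0.23 in J.gamma1 that did not pass (adjusted p = 0.0662), and ATP2B3 rose by 3.14 ± 0.41 in J.gamma1, from 9 and 10 counts to 58 and 96. The other 2 called in 6T-CEM were low and were named after their values were seen. SLC8A1, the NCX1 exchanger gene, had 0 counts in both sh-NC libraries and 24 and 40 in sh-LDB1, 9.75-fold higher against the floor of 3 counts. ATP2B2 went from 2 and 0 counts to 13 and 17. Both passed the filter only through the sh-LDB1 libraries, so they could only be called higher. In total 3 of 5 tested were higher, SLC8A1 and ATP2B2 included, and 1 lower in 6T-CEM, beside 15.1% and 16.2% of all genes. DESeq2 called 2 there and gave no adjusted p for SLC8A1 and ATP2B2. For J.gamma1, 1 of 5 was higher and 1 lower, beside 25.0% and 26.5% of all genes.

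Of 9 genes of mitochondrial calcium handling, MCU, the pore of the calcium uniporter, fell in both lines, by 0.51 ± 0.11 in 6T-CEM and 0.64 ± 0.077 in J.gamma1. SLC8B1, the mitochondrial sodium-calcium exchanger gene, rose by 0.57 ± 0.14 in 6T-CEM and had a change of -0.03 in J.gamma1. LETM1, a gene of the inner mitochondrial membrane, rose by 0.31 ± 0.056 in J.gamma1 and fell by 0.20 ± 0.060 in 6T-CEM, a fall that DESeq2 did not call (adjusted p = 0.0623). All 9 were tested in both lines, with 5 in 6T-CEM and 6 in J.gamma1 that did not pass. Called in 6T-CEM were 1 higher and 3 lower, beside 15.1% and 16.2% of all genes. Called in J.gamma1 were 1 higher and 2 lower, beside 25.0% and 26.5% of all genes.

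Other calcium-permeable and cation channel genes numbered 29, of which 17 were tested in each line. In 6T-CEM 2 were higher and 5 lower, beside 15.1% and 16.2% of all genes, and in J.gamma1 2 were higher and 7 lower, beside 25.0% and 26.5%. TRPM2, a channel opened by ADP-ribose, changed in opposite directions in the lines, from 20.8 and 22.1 CPM to 15.5 and 16.5 CPM in 6T-CEM (-0.41 ± 0.12, adjusted p = 0.0146) and from 5.75 and 6.44 CPM to 23.7 and 22.3 CPM in J.gamma1 (1.93 ± 0.12, adjusted p = 5.11e-07). P2RX4, an ATP-gated channel gene, fell in both lines, by 0.73 ± 0.13 and 0.96 ± 0.12, and so did TRPC1, by 1.00 ± 0.34 and 1.14 ± 0.35, although DESeq2 called TRPC1 in neither line. P2RX7 fell by 0.72 ± 0.22 in 6T-CEM, and CACNA1D, a voltage-gated calcium channel gene, rose by 3.10 ± 0.53 in J.gamma1 from 3 and 11 counts to 59 and 51. The 2 higher genes in 6T-CEM were TRPV5 and TRPV6, named after their values were seen. They went from 4 and 2 to 23 and 22 counts and from 0 and 2 to 20 and 11 counts. Since only the sh-LDB1 libraries took them past the filter, they could only be called higher. DESeq2 called 2 of the 7 genes of 6T-CEM, did not call TRPM2 and P2RX7 either, and gave no adjusted p for TRPV5 and TRPV6. TRPC6, also named after its values were seen, had 13 and 17 counts in J.gamma1 sh-NC and 0 in both sh-LDB1 libraries, 4.58-fold lower against the floor. It passed the filter only through the sh-NC libraries.

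The 5 genes of the volume-regulated chloride channel were all called in J.gamma1, 2 higher and 3 lower, where 25.0% of all genes were higher and 26.5% lower. LRRC8A, the subunit that every such channel needs, fell by 0.38 ± 0.070, LRRC8E fell by 2.50 ± 0.46 from 180 and 207 counts to 46 and 15, and LRRC8B rose by 0.37 ± 0.072. LRRC8C, which fell by 0.36, and LRRC8D, which rose by 0.34, were named after their values were seen. Of the 4 tested in 6T-CEM, 0 were called by edgeR or by DESeq2 and 0 had an unadjusted p under 0.05, with changes of 0.20 ± 0.10 for LRRC8A and 0.17 ± 0.085 for LRRC8B.

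Downstream of calcium entry, calmodulin activates the phosphatase calcineurin, which sends NFAT transcription factors to the nucleus. Of 17 genes of this arm, 2 of 14 tested were higher and 2 lower in 6T-CEM, and 3 of 16 were higher and 8 lower in J.gamma1. The shares over all genes were 15.1% and 16.2% in 6T-CEM and 25.0% and 26.5% in J.gamma1. The higher genes of this arm were near or below the background in both lines, and so were the lower genes in 6T-CEM. The 8 lower genes of 16 in J.gamma1 were above the share of all genes, an excess that was not tested. RCAN1, a calcineurin inhibitor that is itself a target of NFAT, fell in both lines, from 88.8 and 95.6 CPM to 49.2 and 53.0 CPM in 6T-CEM (-0.84 ± 0.074, adjusted p = 8.21e-07) and from 74.0 and 77.6 CPM to 57.4 and 47.9 CPM in J.gamma1 (-0.51 ± 0.087, adjusted p = 0.000758). CAMK4, a calcium- and calmodulin-dependent kinase gene, went from 31 and 28.7 CPM to 64.1 and 63.5 CPM in 6T-CEM (1.11 ± 0.079, adjusted p = 1.10e-07) and from 240 and 220 CPM to 199 and 181 CPM in J.gamma1 (-0.26 ± 0.062, adjusted p = 0.00552). In 6T-CEM, PPP3CB, a catalytic subunit of calcineurin, fell by 0.22 ± 0.073, which DESeq2 did not call. In J.gamma1, NFATC4 fell by 1.22 ± 0.11, PPP3CC by 0.56 ± 0.091 and NFATC1 by 0.51 ± 0.076, and in 6T-CEM PPP3CC and NFATC1 had changes of -0.35 (adjusted p = 0.104) and 0.28 (adjusted p = 0.142) that did not pass.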

How the data were processed

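RNA-seq of 8 libraries, 2 per group, was analysed. The authors used HISAT2 2.2.0 to align 150-base read pairs to hg38 and quantified genes with StringTie. They deposited 1 table of whole-number counts per line, without pooling or normalization. The annotation release, the strand setting and the conversion to counts are not given in the sources used here. Symbols were matched for 56105 of 64252 genes, and genes without one held 2.11% to 2.27% of counts. Positions and lengths came from GENCODE and promoters from RefSeq, both on GRCh38.

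Each line was fitted with edgeR 4.0.16 (R 4.3.3) by its quasi-likelihood test, with TMM factors, filterByExpr and robust estimation, and p-values were adjusted by Benjamini-Hochberg over every gene in the fit. The difference between lines and that between control groups came from 1 fit to all 8 libraries. CPM is TMM-scaled over the 8 libraries, and the level per length divides it by the kilobases of all annotated exons. The common dispersion gave a coefficient of variation between libraries of 9.68% (6T-CEM) and 9.16% (J.gamma1). The scripts were tested on simulated data. Alternatives were DESeq2 1.42.0, other normalizations and filters, no robust estimation, a replicate block, 1 fit to all libraries, a fold threshold, another length and leaving out each library.

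The 9 genes, the lists and the tests were chosen with earlier results of these data known. In each list called genes averaging 20 or more normalized counts were named up to the 3 with the largest absolute change in each line, and exceptions are stated beside the gene. For each of the 9 genes called beyond 2-fold, the 3 genes with the most similar course were taken from those averaging 50 or more, and genes within 100 kb of KCNH2 were named. The floor for a count of 0 was 3 counts per library, which covers the counting error of the 0 only. Folds against it take the counts of the other group as they are and are not lower limits. Genes with few counts in 1 group passed the filter only through the other group, and could only be called in that direction. The list counts and the shares of all genes include such genes. Some called genes and 1 promoter sequence are not reported here.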

Additional observations from a re-analysis of the deposited data

Results flagged for a closer look

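The change with LDB1-knockdown, as the log2 fold change in J.gamma1 minus that in 6T-CEM, differed between the lines for the following genes named in the text and tested in both lines, by the interaction test of edgeR with adjustment over all genes. Beside these differences stands the smaller fall of LDB1 in J.gamma1, whose part in them was not tested. Of the channel and store-operated genes, KCNA3 differed by -0.97, KCNK5 by -0.90, ORAI1 by -0.78, ORAI2 by -0.32 and STIM1 by -0.24.

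Of the other potassium channel genes, KCNK17 differed by 2.28, from a J.gamma1 control level near 0, KCNJ14 by 1.80, KCNMB4 by -0.92 and KCNAB2 by 0.28. TRPM2 differed by 2.34 and CAMK4 by -1.37, and both genes changed in opposite directions in the lines. LETM1, at 0.50, did so as well. KCNJ4 and NFATC4 passed the same test, at -6.38 (adjusted p = 0.0105) and -3.43 (adjusted p = 0.00652), but were below the filter in the 6T-CEM fit, where their libraries held 0 to 4 and 0 to 7 counts, so the size of the fitted difference depends on the prior count.

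The remaining differences were -0.79 for NFATC1, -0.73 for ATP2A1, -0.61 for SLC8B1, -0.58 for LRRC8A, -0.52 for ATP2B4 and -0.23 for ATP2A3. They were 0.38 for ATP2A2, 0.35 for ITPR3, 0.32 for ASPH and 0.30 for PPP3CB.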

How the results depend on the processing

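The number of the 9 genes called was 6 in 6T-CEM, 5 in J.gamma1, 5 for the difference between lines and 4 between control groups, and no other normalization, filter, dispersion estimate, tool or joint fit moved it by over 1.5 times. Requiring a log2 fold change beyond 1 as well left 3, 2, 0 and 1. With 1 library left out, the counts ran from 3 to 5 in 6T-CEM, 5 to 6 in J.gamma1, 3 to 5 for the difference and 3 to 5 between control groups. The lowest, 3, came without replicate 2 of 6T-CEM sh-NC in that line and without replicate 1 of 6T-CEM sh-NC for the difference. An arm with a lone library is assumed to vary like the others.

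The calls of KCNH2 and KCNA3 in both lines, KCNK5 in 6T-CEM, and ORAI1, ORAI2 and STIM2 in J.gamma1 held in every other alternative run and with each library left out. Values turned sign only for changes that were not called. With 1 library left out, ORAI3 in 6T-CEM ran from -0.30 to 0.068, highest without replicate 2 of its sh-NC group. Between control groups ORAI1 was 0.084 and ORAI2 0.081 with total counts only, which moved the median of all genes in that comparison from 0.045 to 0.19, and ORAI1 ran from -0.18 to 0.047 with 1 library left out, highest without replicate 1 of 6T-CEM sh-NC. The KCNH2 difference between lines ran from -0.011 to 0.082, lowest without replicate 1 of J.gamma1 sh-NC or replicate 2 of J.gamma1 sh-LDB1.

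With the replicate number as a block, 6, 5, 5 and 4 of the 9 genes were called, as without it. The labels do not say that the numbers pair the libraries, and the deviations of libraries with the same number correlated at -0.0069 (6T-CEM) and -0.017 (J.gamma1), so the numbers were not treated as pairs. The cause of these dependences was not tested. With 2 libraries per group, low counts, such as those of ORAI3 and KCNN4 in J.gamma1, leave wide intervals.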
